A study of Mus musculus with 24 samples.

Results

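The comparison described here set the extracellular vesicles (EVs) released by vehicle-treated, stimulated mouse CD4+ T cells against the cells that released them. It used 6 of the 24 small RNA libraries of the series: 3 of EVs and 3 of cells from cultures with DMSO, each with all 4408 features left after lines repeated in full were dropped. The cells were CD4+ T cells from the spleen and lymph nodes of C57BL/6 mice. Both DMSO groups came from cultures stimulated for 3 days with the vehicle DMSO, the control for the inhibitor GW4869 used elsewhere in the series, and the EVs were taken from the culture medium. The comparison most like it, EVs against cells of cultures stimulated for 3 days without DMSO on antibodies to CD3 at 2 µg/ml and to CD28 at 5 µg/ml, used 6 other libraries, and shared none with it. Neither the age of the mice nor the antibody doses of the DMSO cultures are given in the labels. Nothing states that the 3 replicates of a condition are separate mice or cultures, and the p-values therefore cover only the spread among these libraries, which may be technical.

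EVs are membrane-bound particles that cells shed from their surface or release when internal compartments fuse with it, and they carry RNA made in the cell. Most RNAs of the size captured here work inside particular compartments: miRNAs sit in Argonaute proteins in the cytoplasm, snoRNAs act in the nucleolus on rRNA, most of them by guiding base or sugar modification, snRNAs splice pre-mRNA in the nucleus, and mitochondrial transcripts stay behind the organelle's own membranes. Fragments of tRNAs are cut from mature or precursor tRNAs, and they are common cargo of EVs in general. An EV to cell comparison therefore reads, class by class, which RNAs are relatively more or less frequent outside the cell. In bulk libraries, more vesicles with an RNA and more of it per vesicle cannot be told apart.

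The libraries held 2068951 to 2579407 counts in EVs and 1551155 to 2007709 in cells. Mir142 (chr11:87756864-87756927, plus strand), a miRNA of blood cells, and Mir142b, which carries the same reads, were the most abundant miRNA features in all 6 libraries. Of 8 genes of T cell identity, only Cd3e and Ptprc were among the features, and none of the 4 B cell, 4 myeloid, 4 muscle or 6 stromal markers on the lists was. No feature had a count under 4 in any of the 24 libraries, so a marker that is missing may still have been present in the samples. The markers of other cells that were measured, Mir451a of red cells, Mir126a of platelets and endothelium and Mir141 and Mir200c of epithelium, lay at 18.1 to 159 CPM (counts scaled to a common library size with TMM factors, which assume that most features do not differ). None of these 4 was called higher in EVs. EV replicate 2 lay nearer to the cells than the other EV libraries in its shares of miRNA and of gene fragments.

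Sequences of the RNAs on which the results turn are given first. The mature miRNAs are from RefSeq (GRCm38.p6), with the seed, bases 2 to 8, in capitals. The counts are per precursor and do not separate the arms. The first set holds the arms of the miRNAs that were most abundant, with the arms of a pair that share a seed, miR-20a-5p and miR-106a-5p.
miR-142a-3p: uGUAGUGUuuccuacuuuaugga
miR-142a-5p: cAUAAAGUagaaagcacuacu
miR-21a-5p: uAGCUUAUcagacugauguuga
miR-92a-3p: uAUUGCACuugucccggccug
miR-155-5p: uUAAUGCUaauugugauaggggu
miR-20a-5p: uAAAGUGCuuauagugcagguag
miR-106a-5p: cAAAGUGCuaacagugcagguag

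The second set holds miRNA loci at the ends of the fold scale, the first 3 higher in EVs and the rest lower in EVs, and all their seeds differ.
miR-6240: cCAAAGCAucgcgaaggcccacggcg
miR-6236: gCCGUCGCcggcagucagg
miR-2137: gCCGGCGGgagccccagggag
miR-210-3p: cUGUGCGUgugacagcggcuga
miR-183-5p: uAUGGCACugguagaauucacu
miR-326-3p: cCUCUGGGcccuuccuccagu

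The third set is read from GENCODE M21 transcripts (GRCm38): the Y RNA Rny1 (chr6:47788069-47788180, minus strand) and the related locus Gm24379 (chr2:158487602-158487687, plus strand), which moved together. In Gm24379 the capitals mark the longest run shared with Rny1, 24 bases at the 3′ end; in Rny1 they mark the longest run shared with Rny3, 12 bases of the loop region.
Rny1: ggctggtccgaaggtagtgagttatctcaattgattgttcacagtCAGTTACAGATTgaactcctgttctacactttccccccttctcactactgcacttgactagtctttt
Gm24379: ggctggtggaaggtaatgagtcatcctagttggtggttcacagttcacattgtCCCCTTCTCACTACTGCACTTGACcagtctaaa

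The last set shows RNAs that were far lower in EVs, the snoRNA loci Gm23201 (chr2:167064998-167065086, plus strand) and Gm22357 (chr1:161036057-161036139, plus strand) and the mitochondrial isoleucine tRNA mt-Ti (chrM:3706-3774, plus strand). Capitals in the snoRNAs mark the first TGATGA, the core of box C, and the last CTGA, box D.
Gm23201: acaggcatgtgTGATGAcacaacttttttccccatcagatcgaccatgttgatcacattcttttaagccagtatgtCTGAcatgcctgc
Gm22357: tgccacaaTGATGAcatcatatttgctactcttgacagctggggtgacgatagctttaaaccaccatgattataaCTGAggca
mt-Ti: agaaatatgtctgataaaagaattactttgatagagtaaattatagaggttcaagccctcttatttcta

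Which classes of RNA DMSO EVs carry was read first from each class's share of a library's counts. The miRNAs took 21.5, 31.1 and 25.9% of counts in EV replicates 1, 2 and 3, against 42.3, 40.7 and 39.8% in cell replicates 1, 2 and 3. The snoRNAs took 0.573, 0.660 and 0.595% in EVs, against 2.45, 2.45 and 2.42% in cells. Protein-coding genes without a listed small RNA inside took 33.6, 17.5 and 27.3% in EVs, against 9.25, 9.13 and 10.3% in cells. The EV and cell libraries did not overlap in any of these, and EV replicate 2, with the most miRNA and the least coding sequence, stood nearest to the cells. A count under a gene's name measured short fragments mapped inside the gene and is not an mRNA level.

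The rRNA features averaged 8.94 ± 0.577% of EV counts and 4.61 ± 0.743% of cell counts (SD, n = 3 each). Y and vault RNAs averaged 0.521 ± 0.116% in EVs and 0.132 ± 0.0104% in cells. Mitochondrial RNAs went the other way, with 0.0575 ± 0.0142% in EVs and 0.555 ± 0.0295% in cells for the rRNAs and 0.025 ± 0.00346% in EVs and 0.338 ± 0.0165% in cells for the tRNAs. For each of these 4 classes the 3 EV libraries lay apart from the 3 cell libraries, which gave an exact two-sided permutation p of 0.1, the smallest that 3 against 3 can give. Nuclear tRNA features took 2.91, 3.64 and 3.67% in EVs, against 3.04, 3.11 and 3.48% in cells, and overlapped (exact permutation p = 0.6). The snRNAs overlapped as well, at 0.864, 1.20 and 1.02% in EVs and 0.926, 0.756 and 0.783% in cells. Shares of a library sum to a whole, so a class that takes more leaves less for the others.

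**Figure D1:**
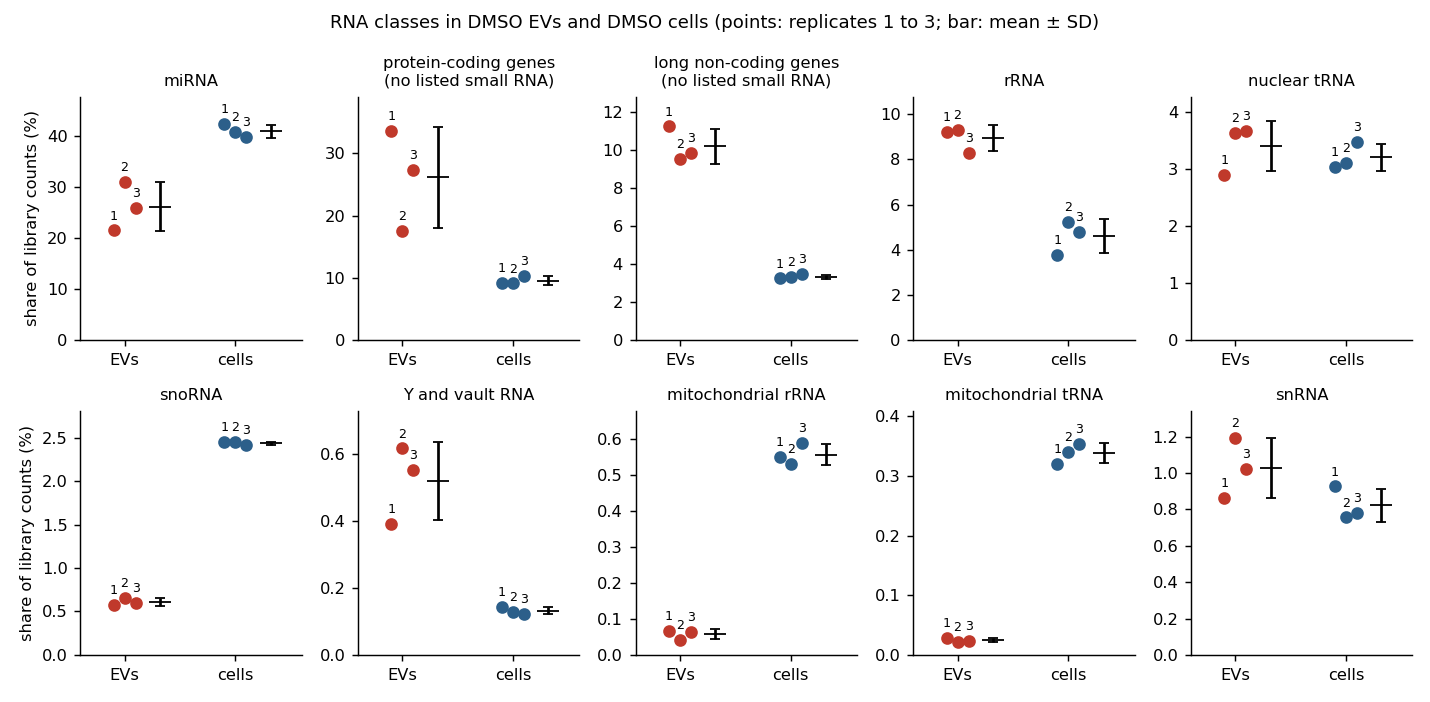
Share of library counts (%, vertical axes starting at 0) of 10 RNA classes in DMSO EVs (red) and DMSO cells (blue); points are replicates 1 to 3 and bars the mean ± SD. The miRNA, snoRNA and mitochondrial shares are lower in all 3 EV libraries, the coding, long non-coding, rRNA and Y and vault shares are higher, and the nuclear tRNA and snRNA shares overlap.

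Feature by feature, 2884 of 4408 features differed between EVs and cells (65.4%), with 1631 higher (37.0%) and 1253 lower in EVs (28.4%), by edgeR's quasi-likelihood test at a Benjamini-Hochberg adjusted p under 0.05. These shares are the background for every count below. The median log2 fold (EVs over cells) of all features was 0.29 with TMM, 0.89 with library totals and 0.06 with RLE factors, and the split moved with it, to 2359 higher and 794 lower with totals and to 1368 higher and 1402 lower with RLE. Smaller folds are therefore best read against the median of all features. Mitochondrial RNAs, snoRNAs and miRNAs stood below it under each of the 3 scalings: all 19 mitochondrial features were lower, 150 of 153 snoRNAs were lower and 0 higher, and 232 of 254 miRNAs were lower and 5 higher. With totals the miRNA counts were 157 lower and 7 higher, and the snoRNA counts 147 lower and 0 higher.

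**Figure D2:**
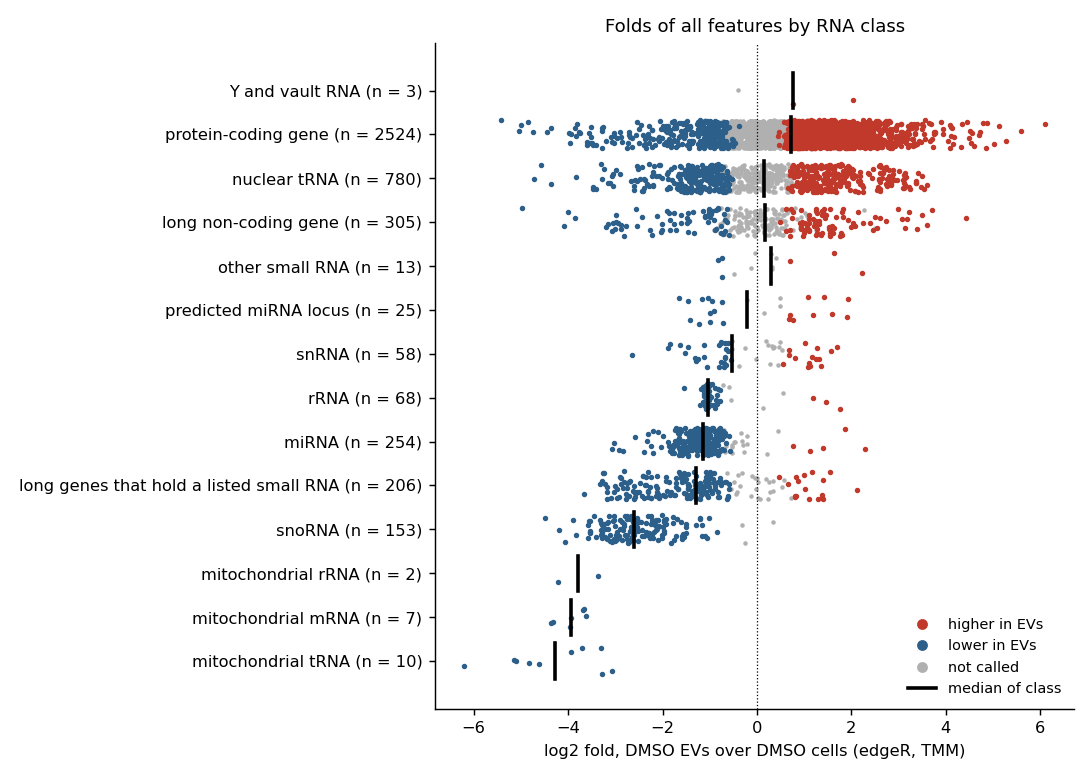
Log2 fold of DMSO EVs over DMSO cells (horizontal axis) for every feature, by RNA class (rows, with the number of features); red and blue mark features called higher and lower, grey those not called, and the black bar is the class median. Mitochondrial classes and snoRNAs lie lowest, miRNAs form a narrow band at a median of -1.15, and tRNA features, snRNAs and gene fragments spread to both sides.

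The miRNAs had a median log2 fold of -1.15 with TMM and -0.61 with library totals. The 5 most abundant features, 4 RNAs since Mir142 and Mir142b carry the same reads, were all lower in EVs. Mir142 stood at 29050, 59303 and 34132 CPM in EVs, against 102336, 96175 and 72856 CPM in cells, a log2 fold of -1.15 ± 0.26 (SE; adjusted p = 0.000517). Mir21a (chr11:86584067-86584158, minus strand), which is induced when T cells are activated, stood at 10680, 26947 and 8965 CPM in EVs, against 53490, 49246 and 51488 CPM in cells (-1.73 ± 0.30, adjusted p = 2.23e-05). Mir155 (chr16:84714140-84714204, plus strand), which T cells need for normal helper responses, stood at 4207, 6752 and 5073 CPM in EVs, against 13633, 12917 and 12223 CPM in cells (-1.27 ± 0.17, adjusted p = 7.79e-07). All 3 EV libraries lay below all 3 cell libraries for each of these. Mir92-1 of the miR-17-92 cluster had a fold of -1.07 ± 0.24, close to the median of its class.

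The miRNAs lowest in EVs went well below that band. Mir210 (chr7:141221384-141221493, minus strand), a miRNA induced by hypoxia, stood at 114, 234 and 160 CPM in EVs, against 1248, 1197 and 1172 CPM in cells (-2.83 ± 0.24, adjusted p = 2.85e-10). Mir183 (chr6:30169668-30169737, minus strand) stood at 50.03, 172 and 98.4 CPM in EVs, against 565, 499 and 527 CPM in cells (-2.32 ± 0.29, adjusted p = 1.70e-07). Mir147 (chr2:122640803-122640881, plus strand) stood at 10.9, 16.8 and 18.9 CPM in EVs, against 133, 103 and 117 CPM in cells (-2.93 ± 0.29). In these the EV libraries lay far below all cell libraries, where the rule for named features required that they not overlap. Mir5099 (-3.03 ± 0.28) and Mir326 (-2.59 ± 0.26), both at 10 to 20 CPM in EVs, completed the 5 lowest among miRNAs that averaged at least 50 CPM in a group.

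Only 5 miRNA features were higher in EVs. Mir150 (chr7:45121757-45121821, plus strand), abundant in resting lymphocytes and lost from cells on activation, stood at 1869, 3088 and 2107 CPM in EVs, against 1454, 1176 and 1549 CPM in cells (0.76 ± 0.22, adjusted p = 0.00388). Its call was lost in a fit of the DMSO and GW4869 libraries alone (0.50, adjusted p = 0.087). Mir139, another miRNA of resting T cells, was low, at 11.97, 14.2 and 13.4 CPM in EVs and 7.53, 3.97 and 3.32 CPM in cells (1.40 ± 0.42, adjusted p = 0.00491). Mir6240 (chr5:114851948-114852064, plus strand) stood at 977, 515 and 417 CPM in EVs, against 135, 136 and 119 CPM in cells (2.29 ± 0.24, adjusted p = 1.33e-08). Mir6236 (chr9:110281287-110281409, plus strand) had a fold of 1.87 ± 0.22 and Mir2137 (chrX:72992079-72992144, plus strand) one of 1.13 ± 0.28. Whether the reads at Mir6240, Mir6236 and Mir2137 are of mature miRNAs was not tested. For these loci the EV libraries lay above all cell libraries, as the rule for named features required. EV replicate 1 was highest for Mir6240 and Mir6236 and lowest for Mir2137.

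Of 11 measured miRNAs known to rise on T cell activation, 11 were lower in EVs and 0 higher (median -1.58), from Mir210 to Mir221 at -0.58 ± 0.19. All 12 let-7 features were lower (median -1.24), from Mir98 at -1.74 ± 0.24 to Mirlet7b at -0.78 ± 0.23. All 15 features of the miR-17-92 and paralogous clusters, which drive lymphocyte proliferation, were lower (median -0.999), among them Mir20a at -0.86 ± 0.18 and Mir106a at -0.68 ± 0.17, whose 5p arms share the seed AAAGUGC. The background share of features lower in EVs was 28.4%. Of all 254 miRNAs 91.3% were lower, so a list with all members lower is close to the share of the class. All 6 miR-15/16, all 6 miR-30 and all 6 miR-23, miR-27 and miR-24 features were lower as well, with medians of -1.07, -0.97 and -1.22. The miR-181 family, which tunes T cell receptor signalling, was split: 4 of 6 were lower, Mir181d at -1.13 ± 0.19 and Mir181c at -1.10 ± 0.18 among them, while Mir181a-1 had 168, 270 and 178 CPM in EVs and 173, 161 and 121 CPM in cells (0.44 ± 0.20, adjusted p = 0.0649) and was not called. Of 12 miRNAs of naive and resting T cells, 10 were lower and the 2 described above, Mir150 and Mir139, higher. The counts of these lists depend on the scaling. With library totals 9 of the 15 features of the miR-17-92 and paralogous clusters were lower (median -0.47), as were 4 of 6 miR-15/16, 3 of 6 miR-30 and 5 of 6 miR-23, miR-27 and miR-24 features, while of the 12 resting-cell miRNAs 4 were lower and 2 higher and of the 6 miR-181 features 2 were lower and 2 higher. The activation list then had 9 of 11 lower and let-7 9 of 12. Mir20a, Mir106a, Mirlet7b and Mir221 were among those not called with totals. Mir221, with a fold of -0.0091 there, was not called either in the fit of the DMSO libraries alone (adjusted p = 0.0708), in that fit with the replicate block (adjusted p = 0.0853) or without cell replicate 2 (adjusted p = 0.0662).

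A tetranucleotide reported in human T cells to favour sorting of miRNAs into exosomes, GGAG, was looked for in the mature sequences of the 184 miRNA features that have one in the RefSeq table. Of these, 29 (15.8%) held GGAG in an arm, 24 of them lower and 2 higher in EVs, with a median fold of -0.999 and quartiles of -1.41 and -0.83. The 155 without it had a median of -1.24 and quartiles of -1.54 and -1.01, and 143 were lower and 3 higher. The ranges overlap over most of their width. CCCU, searched in the same way, was present in 30 (16.3%), with a median of -1.34 against -1.16 in the 154 without it. A match is a run of letters in either arm and is not a binding site, and the counts do not say which arm was sequenced.

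Fragments of nuclear tRNAs differed by the kind of fragment. The kinds are given by the names in the files (5FR_1, 3FR_2, 5_half_up and so on), which do not spell out their positions further. As loci of a tRNA share sequence, they were summed by anticodon and kind and tested in the same way, in a table of 3798 features of which 2500 were called (65.8%), 1459 higher (38.4%) and 1041 lower (27.4%). Of 170 summed tRNA features, 61 were higher and 53 lower with TMM, 94 and 41 with totals, and 54 and 61 with RLE. Leaving out cell replicate 1, 2 or 3 shifted the folds of this table by a median of -0.23, -0.23 and -0.27 and made the split of the 3798 features about even, and leaving out EV replicate 2 shifted them by -0.18, with 1292 higher and 1151 lower. In these 4 fits TMM took another library as its reference, stimulated EV replicate 3 in place of stimulated cell replicate 1. The table of single loci, where the reference stayed the same, moved by at most 0.03. Of the 31 5FR_1 fragments, 29 were higher and 1 lower, with a median fold of 1.95. The total share of the 5FR_1 features was 1.24, 1.71 and 1.54% of counts in EVs, against 0.414, 0.380 and 0.364% in cells. Of the 17 summed 5_half_up fragments, 8 were lower and 1 higher, with a median of 0.065, and with library totals 7 were lower and 8 higher.

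The 5FR_1 fragments of glycine tRNAs were the most abundant tRNA features of DMSO EVs. tRNA-Gly-GCC 5FR_1, summed over 15 loci, stood at 1880, 3020 and 2170 CPM in EVs, against 934, 929 and 793 CPM in cells (1.41 ± 0.32, adjusted p = 0.000509). tRNA-Gly-CCC 5FR_1 stood at 1034, 1921 and 1426 CPM in EVs, against 351, 342 and 301 CPM in cells (2.14 ± 0.22, adjusted p = 7.32e-09). For both, every EV library lay above every cell library. The 5_half_up fragment of the same tRNA went the other way: tRNA-Gly-GCC 5_half_up stood at 585, 1107 and 702 CPM in EVs, against 1773, 2079 and 1955 CPM in cells (-1.28 ± 0.28, adjusted p = 0.000287). These glycine features were chosen after their values were seen, for their abundance.

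The largest rises by the rule for named features were tRNA-Gly-ACC 5FR_1 (3.51 ± 0.37), tRNA-Val-CAC 5FR_1 (3.21 ± 0.42), tRNA-Gly-TCC 3FR_1 (3.15 ± 0.21), tRNA-Ser-AGA 5FR_1 (2.90 ± 0.22) and tRNA-Gly-TCC 5FR_1 (2.87 ± 0.22). tRNA-Val-CAC 5FR_1 stood at 630, 1493 and 809 CPM in EVs, against 107, 119 and 90.2 CPM in cells (adjusted p = 4.94e-07). The exception among 5FR_1 fragments was tRNA-Lys-CTT, at 543, 1067 and 756 CPM in EVs, against 1715, 1394 and 1363 CPM in cells (-0.92 ± 0.23, adjusted p = 0.0011), picked out after its value was seen. It was the most abundant 5FR_1 fragment of the cells.

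The 3FR_2 fragments held the largest falls. tRNA-Ala-TGC 3FR_2, the most abundant tRNA feature of the cells, stood at 211, 519 and 268 CPM in EVs, against 6065, 5959 and 6946 CPM in cells (-4.25 ± 0.41, adjusted p = 2.57e-09). tRNA-Cys-GCA 3FR_2 stood at 116, 172 and 149 CPM in EVs, against 2376, 3046 and 4455 CPM in cells (-4.50 ± 0.26, adjusted p = 4.31e-13). tRNA-Leu-CAA 3FR_2 (-4.53 ± 0.27) and tRNA-Ser-AGA 3FR_2 (-3.80 ± 0.24) fell by as much. The serine tRNA with this anticodon thus had its 5FR_1 fragment higher and its 3FR_2 fragment lower in the same EVs, and so did tRNA-Val-CAC, whose 3FR_2 fragment had a fold of -2.78 ± 0.21. Over all anticodons 11 of 22 3FR_2 fragments were lower and 7 higher, and with totals 10 were lower and 10 higher. By amino acid, proline stood apart with 12 of 14 summed features lower and 0 higher, down to tRNA-Pro-TGG 5FR_S at -3.41 ± 0.31, and 3 of 3 threonine features were lower. With totals, 11 proline features were lower and 1 higher.

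**Figure D3:**
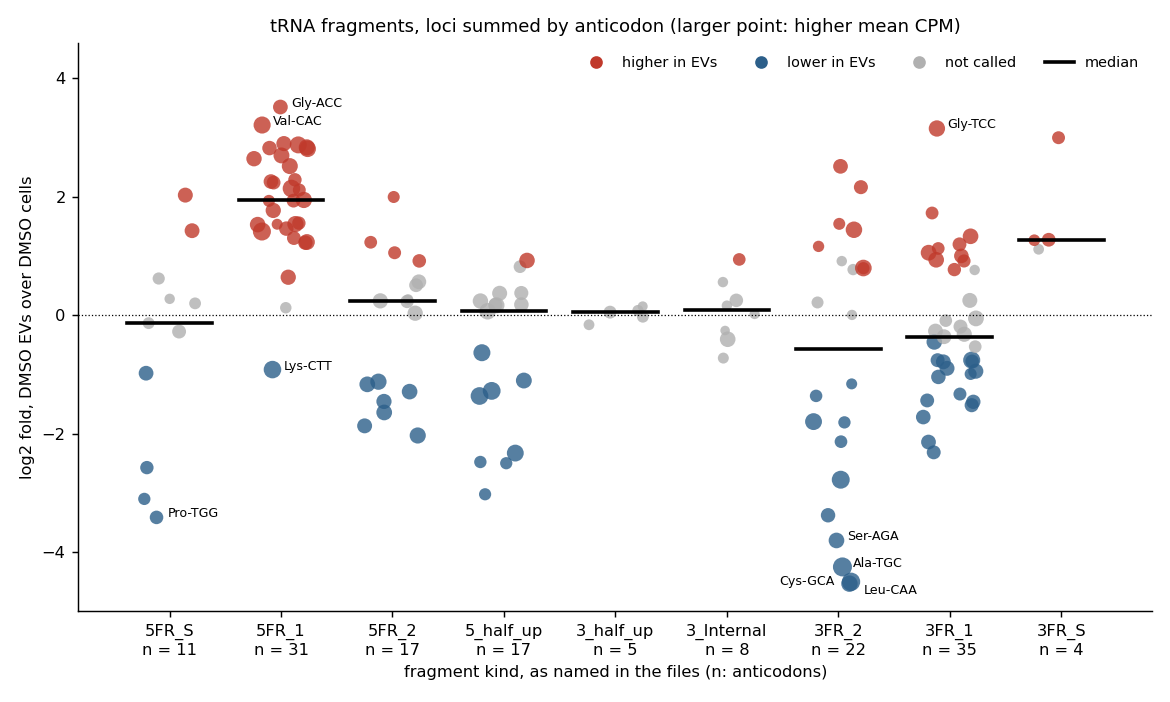
Log2 fold of DMSO EVs over DMSO cells (vertical axis) for tRNA fragments summed by anticodon, for 9 fragment kinds as the files name them (horizontal axis, with the number of anticodons); larger points have a higher mean CPM, colours show the call and the black bar is the median. The 5FR_1 fragments sit above 0 apart from Lys-CTT at -0.92, and the lowest values are the 3FR_2 fragments of Leu-CAA, Cys-GCA and Ala-TGC, at -4.53 to -4.25.

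Mitochondrial RNA was lower in DMSO EVs than any nuclear class. All 10 mitochondrial tRNAs were lower (median -4.28), as were all 7 mRNAs (median -3.93) and both rRNAs. mt-Ti stood at 9.85, 10.6 and 9.44 CPM in EVs, against 676, 816 and 702 CPM in cells (-6.20 ± 0.28, adjusted p = 5.57e-15). mt-Ts2 (chrM:11613-11671, plus strand), a mitochondrial serine tRNA, stood at 7.18, 13.7 and 12.9 CPM in EVs, against 401, 380 and 391 CPM in cells (-5.14 ± 0.27). The large rRNA mt-Rnr2 stood at 242, 220 and 183 CPM in EVs, against 4034, 3917 and 4043 CPM in cells (-4.22 ± 0.17, adjusted p = 1.77e-15). The 3 libraries of each group lay close together for mt-Ti and mt-Rnr2, while the EV libraries varied more for mt-Ts2. Every EV library lay below every cell library, which the rule for named features required of mt-Ti and mt-Ts2. mt-Te at -3.07 ± 0.28 was the smallest fall among the 19 features. With library totals the medians were -3.69 for the tRNAs and -3.33 for the mRNAs.

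The snoRNAs were lower almost without exception, with a median fold of -2.60. Gm23201 stood at 31.1, 35.4 and 32.03 CPM in EVs, against 826, 791 and 604 CPM in cells (-4.50 ± 0.29, adjusted p = 1.66e-12), and Gm22357 had a fold of -4.19 ± 0.30. Snord118, the U8 snoRNA that is needed for the maturation of the large ribosomal subunit's rRNAs and is named here for its abundance, stood at 155, 237 and 169 CPM in EVs, against 907, 936 and 1015 CPM in cells (-2.35 ± 0.20, adjusted p = 2.05e-10). The 3 not called were Gm22009 (0.34 ± 0.49), Scarna3a (-0.26 ± 0.36) and Snora33 (-0.31 ± 0.30), all under 35 CPM in every library. Both TGATGA and CTGA, searched on the transcript strand, occurred in 89 of the 153 snoRNA transcripts (58.2%), of which 88 were lower (median -2.62). Of the 64 without both, 62 were lower (median -2.43), so loci with and without the box C and D letters were lower to a like extent.

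The snRNAs of the spliceosome divided by family. Copies were assigned to a named snRNA where their GENCODE M21 transcripts were at least 90% identical, and copies of a family share reads, so they are not separate evidence. U2, which pairs with the branch point of introns, was higher: 11 of 13 copies were called higher and 0 lower, with a median fold of 1.09. Summed over copies, U2 stood at 2375, 4913 and 2657 CPM in EVs, against 1805, 1688 and 1326 CPM in cells. U5, which holds the exons at the catalytic centre, was lower: 7 of 7 copies were called lower (median -1.26), and the sum was 627, 1103 and 731 CPM in EVs, against 2776, 1896 and 1480 CPM in cells. For both families the EV and cell sums did not overlap (exact two-sided permutation p = 0.1 each), and for U2 replicate 2 was the highest of the EV libraries. Without EV replicate 2, 8 of the 11 U2 copies called higher kept that call and all 7 U5 copies kept theirs. With library totals 13 of 13 U2 copies were higher and 3 of 7 U5 copies lower.

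U1, which recognises the 5′ splice site, had 14 of 26 copies lower and 2 higher (median -0.58), and its sum overlapped, at 2448, 4191 and 2776 CPM in EVs and 4338, 3932 and 4115 CPM in cells. With totals 0 U1 copies were lower and 9 higher, so the direction for U1 depends on the scaling. Rnu7 (chr6:124741225-124741286, minus strand), the U7 snRNA that processes the 3′ ends of histone mRNAs, stood at 40.7, 62.9 and 49.5 CPM in EVs, against 123, 122 and 128 CPM in cells (-1.29 ± 0.23, adjusted p = 2.59e-05). Rn7sk, which holds back transcription elongation, had a fold of -0.76 ± 0.19 and lost its call with totals (-0.18, adjusted p = 0.447). The 2 lowest snRNAs by the rule for named features, Gm24407 (-1.89 ± 0.35) and Gm24265 (-1.84 ± 0.35), neighbours on chromosome 5 whose transcripts are 98.6% identical, matched none of the named snRNAs. The 2 highest, Gm24497 (1.70 ± 0.25) and Gm26316 (1.57 ± 0.27), were U2 copies.

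**Figure D4:**
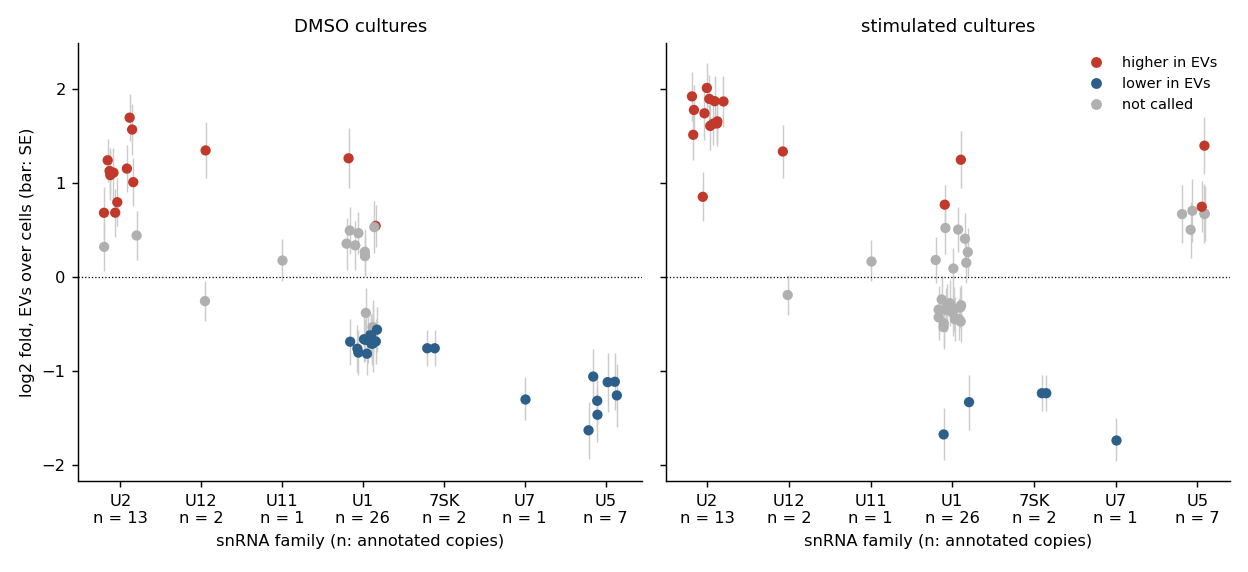
Log2 fold of EVs over cells (vertical axis, bars are SE) for each annotated snRNA copy by family (horizontal axis), in DMSO cultures on the left and stimulated cultures on the right; red, blue and grey mark copies called higher, lower and not called. U2 copies are above 0 on both sides, whereas the 7 U5 copies lie at -1.63 to -1.06 in DMSO cultures and above 0 in stimulated cultures.

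The rRNA features parted by the rRNA they belong to. Rn18s-rs5, an 18S rRNA feature, stood at 49089, 59846 and 40725 CPM in EVs, against 19026, 18998 and 16512 CPM in cells (1.46 ± 0.17, adjusted p = 5.94e-08). Gm24601 (1.77 ± 0.29) and the 5.8S feature n-R5-8s1 (1.18 ± 0.24) were also higher, and no other rRNA feature was. Of 55 annotated copies of 5S rRNA with names in n-R5s, 50 were lower and 0 higher (median -1.03), and with totals 3 were lower and 1 higher (median -0.53). Reads may be shared among these copies, and their calls depend on the scaling. n-R5s71 stood at 36.5, 91.6 and 46.0 CPM in EVs, against 140, 170 and 192 CPM in cells (-1.54 ± 0.34, adjusted p = 0.000325).

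Y RNAs, which bind the Ro protein, were higher in EVs. Rny1 stood at 2288, 4757 and 3106 CPM in EVs, against 871, 810 and 805 CPM in cells (2.03 ± 0.21, adjusted p = 6.15e-09). Rny3 (chr6:47781624-47781725, plus strand) stood at 155, 298 and 204 CPM in EVs, against 141, 126 and 123 CPM in cells (0.75 ± 0.22, adjusted p = 0.00358), and lost its call in the fit of the DMSO and GW4869 libraries alone (0.50, adjusted p = 0.108) and in that of the DMSO libraries with the replicate block (0.66, adjusted p = 0.0513). Gm24379, printed above, stood at 72.9, 144 and 83.2 CPM in EVs, against 31.3, 28.4 and 37.1 CPM in cells (1.63 ± 0.27, adjusted p = 1.44e-05), and Gm24372, a locus 83.0% identical to Rny1, had a fold of 2.21 ± 0.23. Reads of Rny1 may be counted at such loci too. The vault RNA Vaultrc5 overlapped, at 247, 603 and 307 CPM in EVs and 640, 540 and 342 CPM in cells (-0.40 ± 0.31, adjusted p = 0.265; 0.12 with totals and -0.87 without EV replicate 2, adjusted p = 0.0148). Among the other structured RNAs, the 7SL RNAs Rn7s1 and Rn7s2 of the signal recognition particle had folds of -0.73 ± 0.18 and -0.74 ± 0.18 and Rmrp, the RNA of RNase MRP, one of -0.83 ± 0.22; these 3 were called with TMM and not with totals. Rpph1, the RNA of RNase P, was higher by 0.69 ± 0.20 (adjusted p = 0.00381) and was not called with RLE factors or in the fits of the DMSO libraries.

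Fragments of long genes without a listed small RNA made up 27.0 to 44.9% of EV counts, against 12.5 to 13.8% of cell counts. Of 2524 such protein-coding genes, 1219 were called higher in EVs and 275 called lower. Their median fold was 0.73, which was 1.33 with totals and 0.49 with RLE factors. The 305 long non-coding genes split into 85 higher and 68 lower with TMM, 151 higher and 42 lower with totals and 72 higher and 80 lower with RLE. With genes in 4 groups by their extent on the chromosome, the fold went with the extent. In the group of genes with the shortest span (median 31646 bp, n = 616) the median fold was 0.05, with 157 higher and 139 lower. It was 0.49 and 0.94 in the next groups up, and 1.11 in the group with the longest span (median 410658 bp, n = 616), where 423 were higher and 27 lower. Spearman's rho between span and fold was 0.37 over 2462 genes, which share libraries and are not independent, and it was 0.44 in the stimulated cultures. With totals the 4 medians were 0.65, 1.099, 1.53 and 1.73.

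The gene fragments with the largest rises varied most between EV libraries. Fragments within Fgd5 (chr6:91978878-92076004, plus strand), the gene of a guanine nucleotide exchange factor, stood at 296, 104 and 1096 CPM in EVs, against 6.37, 6.25 and 9.28 CPM in cells (6.11 ± 0.68, adjusted p = 2.85e-08). Those within Plekhg1 (chr10:3740364-3967303, plus strand) stood at 478, 172 and 546 CPM in EVs, against 13.9, 9.08 and 7.96 CPM in cells (5.27 ± 0.45, adjusted p = 2.91e-10). A930011G23Rik (5.58 ± 0.82), Igsf5 (5.12 ± 0.52) and Fam49a (5.01 ± 0.43) completed the 5 highest. In Fgd5, Plekhg1, Igsf5 and Fam49a EV replicate 2 was the lowest of the EV libraries. All EV libraries lay far above the cells, where the rule for named features required that they not overlap. The long non-coding gene 6530403H02Rik stood at 98.7, 62.0 and 1876 CPM in EVs, against 21.4, 32.4 and 41.8 CPM in cells (4.42 ± 0.92, adjusted p = 0.000188), and without EV replicate 3 its fold was 1.35 and no longer called (adjusted p = 0.0544). Gm28403 was higher by 3.71 ± 0.41.

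Gene fragments also held large falls. Fragments within Fbxo45 (chr16:32230112-32247158, minus strand), a subunit of a ubiquitin ligase, stood at 6.39, 7.53 and 8.01 CPM in EVs, against 368, 326 and 243 CPM in cells (-5.42 ± 0.31, adjusted p = 3.55e-13). Those within Fgg (chr3:83007724-83015049, plus strand), a fibrinogen chain made by liver, stood at 117, 297 and 166 CPM in EVs, against 5338, 5117 and 6289 CPM in cells (-4.86 ± 0.43, adjusted p = 4.97e-10). The cell counts under this liver gene's name are of fragments mapped inside it. Zbtb41 (-5.04 ± 0.30), Tshr (-5.004 ± 0.25) and Mapk15 (-4.74 ± 0.29) were lower to the same degree, and so were the non-coding Gm14321 (-4.98 ± 0.26) and Gm13558 (-4.09 ± 0.30). In each of these all EV libraries lay far below all cell libraries, where the rule for named features required that they not overlap. Of 30 ribosomal protein genes, 27 were lower and 0 higher (median -2.30). However, 23 of the 30 hold a listed small RNA whose reads may be counted for the gene as well. The 23 were all lower (median -2.40), and of the 7 others 4 were lower and 0 higher (median -1.42). The lowest was Rpl17 at -3.23 ± 0.21, and Rpl13a stood at 116, 125 and 111 CPM in EVs, against 858, 770 and 726 CPM in cells. All 6 replication-dependent histone genes were lower (median -2.14), down to Hist1h1c at -3.85 ± 0.24. Of these, Hist1h2be lost its call with totals (-0.23, adjusted p = 0.505), in the fit of the DMSO libraries alone and when any library but EV replicate 2 was left out, as without EV replicate 3 (-0.49, adjusted p = 0.216).

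Among genes that mark the state of a T cell, Cd44, an adhesion receptor raised on activated cells, stood out. Its fragments stood at 1871, 1118 and 868 CPM in EVs, against 191, 183 and 172 CPM in cells (2.82 ± 0.25, adjusted p = 4.65e-10). Of the 4 activation genes measured, 2 were higher and 0 lower, with Nfatc1 at 0.06 ± 0.32 and Myc at -0.19 ± 0.46 not called. Over all 2685 protein-coding genes 46% were higher and 14.9% lower, so 2 of 4 is close to the share of the class. Of the 2 measured genes of T cell identity, Ptprc was lower (-1.81) and Cd3e was not called (0.056). Of 7 genes of naive T cells, Foxo1 was higher (0.65 ± 0.26, adjusted p = 0.0347) and Bach2 lower (-0.53 ± 0.21, adjusted p = 0.0293), and 5 were not called. The nuclear RNAs Malat1 (-0.71 ± 0.28) and Neat1 (-0.86 ± 0.35) were lower, at under 30 CPM. The calls of Foxo1, Bach2, Malat1 and Neat1 were each lost under several other settings, and with totals 4 of the 7 naive T cell genes were higher and 0 lower.

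Among the most abundant gene fragments of EVs, Gm42418 and AY036118, which lie on opposite strands of the same stretch of chromosome 17 (39846958 to 39848788 and 39847113 to 39848035), stood at 30887, 36670 and 24108 CPM and 23724, 27510 and 17866 CPM in EVs, against 10048, 10384 and 9097 CPM and 6254, 6143 and 5724 CPM in cells (1.63 ± 0.17 and 1.93 ± 0.17). Per count of Rn18s-rs5, Gm42418 had 0.629, 0.613 and 0.592 in EVs and 0.528, 0.547 and 0.551 in cells. AY036118 had 0.483, 0.460 and 0.439 in EVs and 0.329, 0.323 and 0.347 in cells. Rn18s-rs5 has no position here, so a gene that holds it could not be marked. Whether reads of Gm42418 and AY036118 are of rRNA was not tested. Camk1d stood at 13717, 5050 and 4686 CPM in EVs, against 1186, 1257 and 1180 CPM in cells (2.69 ± 0.31), and Cmss1 at 12311, 8657 and 7386 CPM in EVs, against 2781, 2853 and 2957 CPM in cells (1.72 ± 0.21). Filip1l overlaps Cmss1 on the other strand and carried almost the same counts. These genes were named after their values were seen, as the most abundant of their class in EVs. Strand was not separated in such pairs, so reads of a gene and its antisense partner cannot be told apart.

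Whether the vehicle cultures repeated the pattern of the stimulated cultures was asked of separate libraries. Across 4408 features the folds of the comparisons had a Pearson correlation of 0.78 and a Spearman correlation of 0.75, as a description over features that share libraries. Of the 1631 features higher in DMSO EVs, 881 (54.0%) were among the 1221 higher in stimulated EVs (27.7% of 4408), of which they are 72.2%. Of the 1253 lower in DMSO EVs, 881 (70.3%) were among the 1138 lower in stimulated EVs (25.8% of 4408), of which they are 77.4%. The folds of nuclear tRNA features were closest, with a Pearson correlation of 0.92 over 780 features, and the snoRNAs had 0.53 over 153. By Spearman's rho the rRNA features were lowest, at 0.364 over 68, below the snoRNAs at 0.476. The mitochondrial and snoRNA medians were alike in DMSO and stimulated cultures: -4.28 against -4.20 for the mitochondrial tRNAs and -2.60 against -2.67 for the snoRNAs.

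The difference of the EV to cell fold, DMSO minus stimulated, was tested directly and was called for 818 of 4408 features (18.6%), 572 positive (13.0%) and 246 negative (5.58%). The count was 1284 without DMSO EV replicate 2 and 536 without stimulated cell replicate 3. Fitted on the DMSO and stimulated libraries alone, 602 features were called, 295 positive and 307 negative, so the split depends on the libraries in the fit. The names of 3 genes stand on 4 lines each, which cross 2 separate values of the 12 DMSO and GW4869 libraries with 2 of the 12 other libraries, and whether the 2 sets of libraries were tabulated apart is not stated. The vehicle, any separate tabulation and the antibody dose of the DMSO cultures cannot be told apart in this difference. The positive calls were mostly gene fragments: 478 of 2524 protein-coding genes without a listed small RNA had a positive difference and 121 a negative one. Some small RNA classes leaned the other way, with 24 negative and 4 positive among 254 miRNAs and 10 negative and 1 positive among 58 snRNAs. Nuclear tRNA features had 57 negative and 3 positive among 780, where 5.58% of all features were negative. Other small RNA classes leaned positive, with 15 positive and 4 negative among 153 snoRNAs and 7 positive and 1 negative among 25 predicted miRNA loci. The 68 rRNA features had 3 positive and 0 negative. With tRNA loci summed, 768 of 3798 features had a called difference (20.2%), 517 positive (13.6%) and 251 negative (6.61%), and of the 170 tRNA features 0 were positive and 21 negative. The median miRNA fold was -1.15 in DMSO cultures and -0.59 in stimulated cultures.

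U5 differed between the cultures. All 7 U5 copies had a negative difference (median -2.06), and Rnu5g (chr9:65201726-65201841, minus strand) had a fold of -1.63 ± 0.30 in DMSO cultures, against 0.50 in stimulated cultures (difference adjusted p = 0.000928). The U5 sum averaged 820 ± 250 CPM in DMSO EVs, against 2051 ± 662 CPM in DMSO cells, and 735 ± 54.9 CPM in stimulated EVs, against 444 ± 29.5 CPM in stimulated cells (SD, n = 3 each). The mean levels differed less between the EVs of the cultures than between the cells. The U2 sum averaged 3315 ± 1391 CPM in DMSO EVs, against 1606 ± 250 CPM in DMSO cells, and 3922 ± 811 CPM in stimulated EVs, against 1186 ± 105 CPM in stimulated cells. Among miRNA families, 4 of 6 miR-30 features had a negative difference, Mir30b at -0.98 ± 0.27 (adjusted p = 0.0126) among them.

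Single gene fragments differed far more. The 5 lowest differences were those of Tcf7 (-5.09 ± 0.61), a transcription factor of naive T cells, Obox1, Mcf2l, Vps54 and Obox3. Fragments within Tcf7 stood at 9.05, 1.77 and 3.72 CPM in DMSO EVs, against 9.84, 5.11 and 7.29 CPM in DMSO cells, while stimulated EVs averaged 166 CPM, against 7.01 CPM in stimulated cells. The DMSO EVs thus overlapped with their cells for this fragment. The 5 highest were 6530403H02Rik, A930011G23Rik, Zswim6, Sorcs2 (3.93 ± 0.48) and Slc44a3. Of these, 6530403H02Rik was not called without DMSO EV replicate 3 (1.504, adjusted p = 0.226), nor Slc44a3 without stimulated cell replicate 3 (1.65, adjusted p = 0.0972) or with the replicate block (2.40, adjusted p = 0.0687). Fragments within Sorcs2 (chr5:36017180-36398139, minus strand), a sorting receptor, stood at 1537, 308 and 682 CPM in DMSO EVs, against 38.2, 61.9 and 65.7 CPM in DMSO cells, while stimulated EVs averaged 107 CPM, against 106 CPM in stimulated cells. Called in opposite directions were 53 features higher in DMSO EVs and lower in stimulated EVs and 12 the other way. The difference is made of the same 2 opposite folds, so its call for all 65 of them is not separate evidence.

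**Figure D5:**
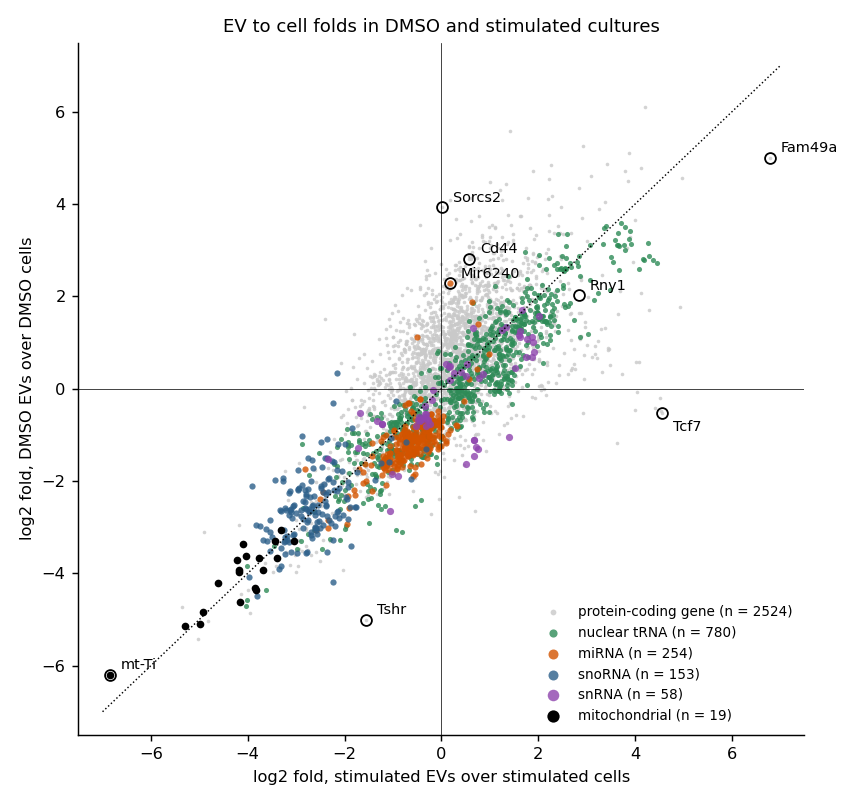
Log2 fold of EVs over cells in DMSO cultures (vertical axis) against that in stimulated cultures (horizontal axis) for features of 6 groups, one point a feature; the dotted line marks equal folds and circled points are named. Mitochondrial RNAs and snoRNAs lie low on both axes, most gene fragments lie above the line, most miRNAs lie below it, and Tcf7 and Sorcs2 lie far from it on either side.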

How the data were processed

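Small RNA libraries of 3 DMSO EV and 3 DMSO cell samples were analysed within all 24 libraries of the series. The deposited values are whole-number counts of reads per feature, made by the authors with Bowtie on mm10 (GRCm38), per the submitters' processing notes; versions and counting settings are not given in the sources used here. A read of a small RNA inside a longer gene may have been counted for both, which the sources used here do not state. Of 4441 lines a file, 33 repeated in full were dropped. Positions come from GENCODE M21 for 3498 of 3612 names outside tRNA.

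Counts were fitted with edgeR 4.0.16 (R 4.3.3; TMM, quasi-likelihood F-test, all 8 groups, Benjamini-Hochberg adjustment), a minimum count of 10 removing 0 features, and a second time with tRNA loci summed by anticodon and fragment kind. The procedure was tested on simulated data, with 50 features changed at each known fold. It recovered 48% and 24% of log2 folds of 1 and -1, and 96% and 90% of those of 2 and -2. With tRNA loci summed it recovered 34% and 26%, and 98% and 78%. False calls numbered 1 and 3 in the 2 tables. All other features were simulated as equal between DMSO EVs and DMSO cells, whereas 65.4% of features were called in the data. The recovery rates and false calls of the simulation therefore do not carry over to this comparison. A feature not called may still differ, and how large a fold could be missed in these data was not tested. Shares were compared by an exact permutation test over 20 arrangements. Alternatives were library totals, RLE factors, filters, host genes left out, subsets of libraries, the replicate block, DESeq2 1.42.0 and leaving out each library. Named features had to be called, average at least 50 CPM in the higher group and not overlap between EVs and cells, the extremes of each class being taken, besides the Y, vault, 7SL and 7SK RNAs, the most abundant miRNAs and up to 4 members a list. The members and lists were chosen with earlier results of these data known.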

Additional observations from a re-analysis of the deposited data

Results flagged for a closer look

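The EV to cell fold differed between DMSO and stimulated cultures for the features below, by edgeR's test of the difference itself; each value is the log2 fold in DMSO cultures minus that in stimulated cultures, and the adjusted p-values ran from 5.94e-10 for Mcf2l to 0.0465 for Mir30c-1. The vehicle and any separate tabulation of the DMSO and stimulated libraries cannot be told apart in these differences.

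Gene fragments with a higher fold in DMSO cultures were 6530403H02Rik (4.58), A930011G23Rik (4.16), Zswim6 (3.99), Sorcs2 (3.93), Slc44a3 (3.91), Plekhg1 (2.35) and Cd44 (2.24). Those with a lower fold were Tcf7 (-5.09), Obox1 (-5.03), Mcf2l (-4.83), Vps54 (-4.79), Obox3 (-4.72), Tshr (-3.45), Fam49a (-1.77), Ptprc (-1.67) and Bach2 (-0.98). Obox1 and Obox3 overlap on chromosome 7 and are not separate evidence. Without DMSO EV replicate 3 the difference of 6530403H02Rik was 1.504 and not called. That of Slc44a3 was 1.65 without stimulated cell replicate 3 and 2.40 with the replicate block, not called in either.

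Among small RNAs, the fold was higher in DMSO cultures for Mir6240 (2.11), Mir6236 (1.24), Mir2137 (1.62), Gm24601 (2.16), Rn18s-rs5 (0.99) and mt-Rnr1 (0.72). It was lower for Mir101b (-0.98), Mir30b (-0.98), Mir30c-1 (-0.80), Mir200c (-1.23), Gm22357 (-1.95), tRNA-Gly-TCC 5FR_1 (-1.40) and Rny1 (-0.82). For tRNA-Gly-TCC 5FR_1 the difference comes from the table with summed tRNA loci, where 20.2% of features were called.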

How the results depend on the processing

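The count of features called between DMSO EVs and cells kept within 1.5 times of 2884 under all alternatives run, from 2591 with the DMSO libraries only to 3153 with library totals, and 2616 to 2947 when a library was left out. Its split into higher and lower calls did not: 56.55% of calls were higher with TMM, 74.82% with totals (2359 against 794) and 49.39% with RLE (1368 against 1402), and the DMSO and GW4869 libraries alone gave 1240 higher and 1360 lower. With tRNA loci summed the count ranged over 2206 to 2443 when a library was left out. There 1089, 1089 and 1124 features were higher and 1117, 1117 and 1122 lower without cell replicate 1, 2 and 3, as the folds shifted by -0.23, -0.23 and -0.27, and 1292 higher and 1151 lower without EV replicate 2, by -0.18; TMM took another reference library in these fits. The difference between cultures ranged over 536 to 1284 calls when a library was left out.

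The replicate block gave 2664 calls (1473 higher, 1191 lower), 2208 with tRNA loci summed and 596 for the difference. Deviations of EV and cell libraries with the same number had correlations of -0.028, 0.12 and 0.099 in DMSO cultures and 0.15, -0.099 and -0.085 in stimulated cultures. With 3 libraries a group these values cannot show whether libraries with the same number are pairs, and the labels do not say.

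With host genes left out, the EV minus cell share was -0.4162 points for nuclear tRNA and -0.04147 points for predicted miRNA loci, against 0.19 and 0.094 points with them. Of 121 single features, 85 kept direction and call under every alternative and 8 turned direction under some, all of them uncalled in the full fit except Bach2. With totals the fold was 0.12 for Vaultrc5, 0.45 for Myc, 0.062 for Bach2, 0.61 for Foxp1, 0.090 for Tcf7 and 0.32 for Mir451a. Nfatc1 had -0.17 with RLE, -0.041 with host genes left out, -0.19 with the DMSO and GW4869 libraries, -0.26 and -0.14 without cell replicate 2 and 3, and -0.17 with DESeq2. Cd3e had -0.19 with RLE, -0.050 with host genes left out, -0.21 with the DMSO and GW4869 libraries, -0.090 with the block, -0.32 without EV replicate 3, -0.088 without cell replicate 2 and -0.18 with DESeq2. Without EV replicate 2 the fold was 0.12 for Myc and 0.18 for Foxp1, and without cell replicate 3 it was 0.059 for Foxp1. Over all libraries left out singly, the highest or lowest folds were 0.84 for Nfatc1 (without cell replicate 1), -0.38 for Myc (without EV replicate 3), -0.11 for Foxp1 (without EV replicate 1) and 0.35 for Cd3e (without EV replicate 2). The causes were not tested.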
